A study of Mus musculus with 54 samples.

Results

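Livers of 13 male mice given diisononyl phthalate (DINP) at 1.5 mg/kg bw/d, the lowest dose of the experiment, were compared with livers of 14 control mice across the transcriptome. All genes with a mean value of at least 1 over these 27 mice were included, which kept 11471 of the 20162 rows of the expression table (56.9%) and left out 8691, of which 1464 were at 0 in all 27 mice. Gtf3c5 had the lowest mean among the rows kept (1.0003) and Zfp383 the highest among those left out (0.99962). Differentially expressed genes (DEGs) were those with a log2 fold change (log2FC) above 0.5 in size and an adjusted p below 0.05.

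All mice were wild-type C57BL/6J males. From the age of 8 weeks they ate a high-fat diet with 45% of its energy from fat, and for 20 weeks each mouse, housed alone, ate a gelatin pellet every day. The pellet carried no DINP (14 control mice), or DINP at 1.5 (13 mice), 15 (13 mice) or 150 mg/kg bw/d (14 mice), so that the diet and the pellet were common to all groups. RNA came from the medial liver lobe, 1 mouse per sample, and the 3′ ends of polyadenylated transcripts were sequenced. All samples analysed here came from high-fat-fed males, so the comparison applies to these alone.

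DINP is a plasticizer of polyvinyl chloride. In the gut and liver it is cut to its monoester, MINP. Phthalate monoesters bind peroxisome proliferator-activated receptor alpha (PPARα), a nuclear receptor of liver cells that switches on the enzymes of fatty acid oxidation and the Cyp4a hydroxylases in rodents. The question of the comparison was whether the lowest dose left a mark on the liver transcriptome, and on which genes.

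The values are TPM, transcript levels corrected for sequencing depth and transcript length, that the authors rounded and then scaled between mice. They are thus relative levels and not reads, and the number of reads behind a value is unknown. The libraries hold 3′ ends, and the effect of a correction for length on levels compared between genes was not tested. The summed value per control mouse was 747258 to 1012952 (median 964762), and per exposed mouse 849922 to 1005966 (median 953524). From 12338 to 14221 rows (median 12820) were above 0 in a control mouse, and from 12525 to 13606 (median 12887) in an exposed mouse. The 15 mitochondrially encoded rows made up 28.4 to 34.9% of the summed values in controls (median 33.2%) and 29.1 to 33.3% in exposed mice (median 30.8%). All 8 hepatocyte markers were present and none passed the test. Albumin (Alb) had a mean value of 19383 ± 3235 in controls and 19929 ± 2138 in exposed mice (mean ± SD, n = 14 and 13).

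Few genes passed both thresholds, and the number of genes that changed was not estimated. There were 42 DEGs among the 11471 rows (0.366%), of which 23 were upregulated (0.201%) and 19 downregulated (0.166%) in the exposed mice. A limma model of log2(value + 1) that held all 4 groups gave the test, with p-values adjusted by Benjamini-Hochberg. Without the fold threshold, 77 rows were higher (0.671%) and 60 lower (0.523%) at an adjusted p under 0.05, and 1411 rows (12.3%) had an unadjusted p under 0.05. The shares of 0.671% and 0.523% are the background for the counts of members with an adjusted p under 0.05 in the gene lists below. The median log2FC of all rows was 0.0035, and the median standard error (SE) of a log2FC was 0.13. Only 9 of the DEGs went beyond a log2FC of 1, namely 6 upregulated and 3 downregulated. At the fold threshold, Rapgef1 lay just inside (0.50003) and Zc3h15 just outside (0.49505). Adding 1 to each value before taking logs understates the change of genes with low values. In whole tissue, fewer cells of a type and less RNA per cell cannot be told apart.

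**Figure D1:**
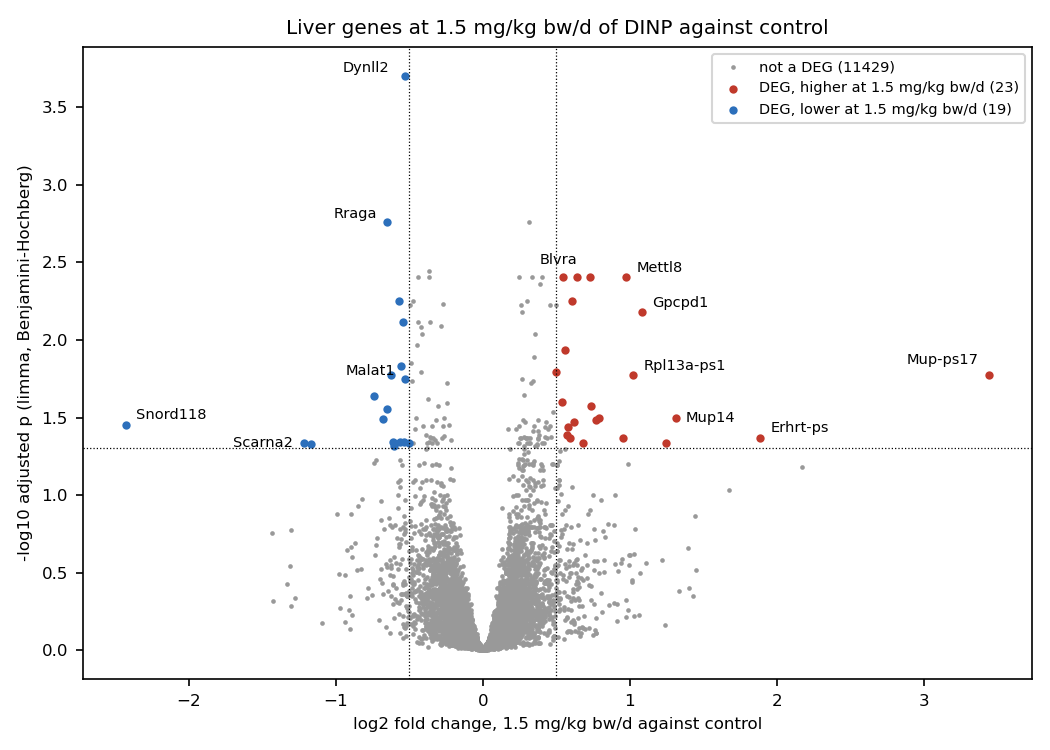
Each point is 1 of the 11471 rows, with its log2 fold change at 1.5 mg/kg bw/d against control on the x axis and −log10 of its adjusted p on the y axis. Dotted lines mark the thresholds. The 23 upregulated (red) and 19 downregulated (blue) DEGs are few against the grey cloud, Dynll2 stands highest, and Mup-ps17 (log2FC 3.44) and Snord118 (log2FC -2.43) stand farthest to the sides.

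The smallest adjusted p belonged to Dynll2, which encodes a light chain shared by the dynein and myosin V motors (chromosome 11, 87979525 to 87987533, GRCm38). Its values ran from 229 to 338 in controls (median 272) and from 163 to 219 in exposed mice (median 191). The groups did not overlap, and this was true of no other of the 11471 rows. The log2FC was -0.53 ± 0.08 (SE, adjusted p = 0.000198). Rraga, the gene of the RagA GTPase that brings mTORC1 to the lysosome when amino acids are available (chromosome 4, 86575668 to 86577285), ran from 57.4 to 107 in controls (median 89.1) and from 42.2 to 75.1 in exposed mice (median 51.0). All 13 exposed mice lay below the control median, 8 of them below every control. The log2FC was -0.65 ± 0.11 (adjusted p = 0.00175).

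Nutrient-sensing genes upstream of mTORC1 were tested as a list. Of its 36 tested members 16 were higher and 20 lower, and Rraga alone had an adjusted p under 0.05. The log2FC of the list ran from -0.65 to 0.52, with a median of -0.0064. Lamtor1 and Lamtor4, subunits of the Ragulator complex that anchors the Rag GTPases, had a log2FC of -0.17 ± 0.07 and -0.15 ± 0.06 (adjusted p = 0.259 and 0.237).

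Other downregulated genes had adjusted p-values of 0.0056 to 0.0229. Zrsr2, a splicing factor of the minor spliceosome on the X chromosome, ran from 24.3 to 45.8 in controls (median 32.5) and from 16.1 to 29.9 in exposed mice (median 21.5), with a log2FC of -0.57 ± 0.12 (adjusted p = 0.0056). Every exposed mouse was below the control median. Iba57, which is needed to build the iron-sulfur clusters of mitochondrial enzymes, ran from 11.1 to 21.2 (median 15.0) and from 7.30 to 16.2 (median 9.86), and 7 exposed mice lay below all controls (log2FC -0.54 ± 0.12, adjusted p = 0.00762). Tatdn2, of the TatD family of nucleases, had means of 26.2 ± 4.47 and 17.7 ± 3.98 (adjusted p = 0.0147). Flvcr2, a choline transporter, was near the limit of the table, with values from 0.936 to 3.12 in controls and from 0 to 1.04 in exposed mice, 5 of which were at 0 (log2FC -0.74 ± 0.18, adjusted p = 0.0229). Gm28875, a long noncoding RNA, was similarly low (median 3.88 and 2.02, adjusted p = 0.0167).

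Other downregulated genes lost the call when certain mice were left out. Malat1, an abundant noncoding RNA of the nucleus, ran from 2435 to 4474 in controls (median 3154) and from 1550 to 2760 in exposed mice (median 2169). It kept an adjusted p of at most 0.0416 in each of the 27 fits with a single mouse left out, while its log2FC (-0.53 ± 0.12, adjusted p = 0.0179) shrank to no more than 0.5 in size in 3 of them. Pdia4, a disulfide isomerase of the endoplasmic reticulum, ran from 102 to 211 (median 140.3) and from 50.4 to 157 (median 81.9). It was lower by a log2FC of 0.65 in size (adjusted p = 0.028), and without replicate 8 of the exposed group, its lowest mouse, the adjusted p was 0.0689. Among the 29 tested genes of the unfolded protein response, to which Pdia4 belongs, it was the only one with an adjusted p under 0.05 (median log2FC of the list -0.038). H2ac18, a histone H2A gene, had medians of 263 and 175 (log2FC -0.68 ± 0.17, adjusted p = 0.0322) and missed the threshold in 7 of the 27 fits. Rnd3, a small GTPase, Ube2g2, a ubiquitin-conjugating enzyme of endoplasmic reticulum-associated degradation, and Ndufb2, a subunit of respiratory complex I, had a log2FC of -0.61, -0.56 and -0.53 (adjusted p = 0.0453, 0.0453 and 0.0455), and lost the call in 18, 22 and 22 of the 27 fits. The highest adjusted p over these fits was 0.0602 for H2ac18, 0.0886 for Ube2g2 and 0.099 for Ndufb2, each without replicate 1 of the control group, and 0.092 for Rnd3 without replicate 12 of the exposed group. Annotated genes on the same strand overlap Malat1 (Gm27694), Ube2g2 (Gm49325) and Ndufb2 (Gm42420), so their values may be shared. Adora1, the adenosine A1 receptor gene, ran from 4.16 to 11.0 in controls (median 8.65) and from 2.94 to 8.95 in exposed mice (median 5.04), with a log2FC of -0.60 ± 0.16 (adjusted p = 0.0462). It lost the call in 20 of the 27 fits (adjusted p = 0.0979 without replicate 5 of the exposed group). Hspa4l, Fcor and Fnbp1 were downregulated DEGs as well, and each lost the call in 22 of the 27 fits.

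Of the upregulated protein-coding genes, Mettl8 encodes a methyltransferase of mitochondrial transfer RNAs. Its values ran from 5.20 to 15.6 in controls (median 10.9) and from 12.9 to 38.6 in exposed mice (median 21.2), 11 of which were above every control (log2FC 0.97 ± 0.19, adjusted p = 0.00391). Gpcpd1 encodes the enzyme that splits glycerophosphocholine into choline and glycerol 3-phosphate. It ran from 3.12 to 30.3 (median 16.4) and from 13.7 to 73.4 (median 37.4), with a log2FC of 1.08 ± 0.23 (adjusted p = 0.00656). Here 12 of the 13 exposed mice were above the control median and 8 above all controls. Blvra encodes biliverdin reductase A, which makes bilirubin. It ran from 5.61 to 10.9 (median 8.48) and from 9.53 to 17.5 (median 12.5), with 10 exposed mice above all controls (log2FC 0.55 ± 0.10, adjusted p = 0.00391).

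Flywch1, a zinc finger gene, had means of 31.1 ± 7.83 and 48.6 ± 15.0 (log2FC 0.61 ± 0.12, adjusted p = 0.0056). Mark3, a kinase that regulates microtubules and cell polarity, and Rapgef1, which activates the GTPase Rap1, had a log2FC of 0.56 and 0.50 (adjusted p = 0.0116 and 0.0161). All 13 exposed mice were above the control median for each of these genes. Rapgef1 fell to or under the fold threshold in 16 of the 27 fits, with an adjusted p of at most 0.03995 in each. Cibar1, a BAR-domain gene of cilia, and Syt1, a calcium sensor of vesicle fusion, had a log2FC of 0.54 and 0.79 (adjusted p = 0.0252 and 0.032) and lost the call in 2 and 4 of the 27 fits, with a log2FC of 0.4957 for Cibar1 without replicate 6 and an adjusted p of 0.0627 for Syt1 without replicate 5 of the exposed group. Mark3 (Gm48286) and Syt1 (Gm5136) are also overlapped by annotated genes on the same strand, so their values may be shared. Further upregulated DEGs included Gm8883, Prkag2, Erhrt-ps, Lin7a, Gm14427, Cyp2c72-ps and Ugt1a1. Of these Erhrt-ps, which no annotation used here holds, was singled out after its values were seen for its log2FC of 1.89 ± 0.50 (adjusted p = 0.043). It was listed at 0 in 8 of the 14 controls and in 1 of the 13 exposed mice, and it lost the call in 18 of the 27 fits (adjusted p = 0.0785 without replicate 5 of the exposed group). Gm8883, Prkag2, Lin7a and Gm14427 lost the call in 7, 10, 18 and 14 of these fits.

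**Figure D2:**
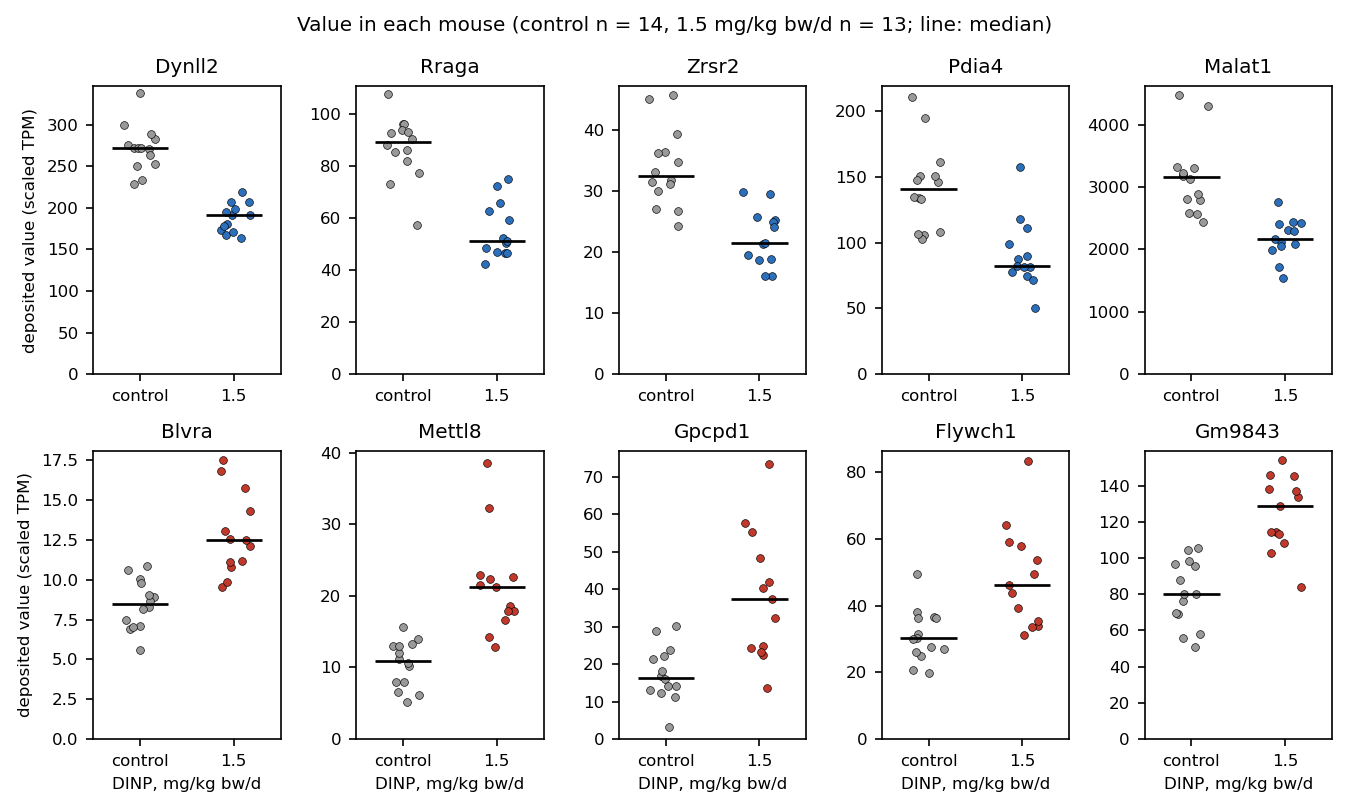
Each panel shows 1 DEG, with the deposited value (scaled TPM) on the y axis from 0 and 1 point per mouse for control (grey, n = 14) and 1.5 mg/kg bw/d (colour, n = 13). Horizontal lines are medians. Dynll2 shows no overlap between groups (lowest control 229, highest exposed mouse 219), whereas in the other 9 panels some exposed mice lie within the control range, 5 of 13 for Rraga and 8 of 13 for Flywch1.

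Pseudogenes were among the DEGs in the upward direction alone. Of 493 tested pseudogenes 7 were DEGs, all higher (1.42%), whereas of 10064 protein-coding rows 14 were higher and 15 lower (0.288%), and of 627 other RNAs 1 was higher and 2 lower. Several are near-copies of expressed genes. Gm9843 on chromosome 16 matched the ribosomal protein and ubiquitin-like gene Fau in all of its 402 bases with 100% identity. The match took up positions 65 to 466 of the 508-base Fau transcript, and reads that lie wholly within it cannot be assigned by sequence. Its values ran from 50.9 to 106 in controls (median 80.2) and from 84.0 to 154 in exposed mice (median 129), with 11 exposed mice above all controls (log2FC 0.64 ± 0.12, adjusted p = 0.00391). Fau itself ran from 209 to 299 and from 275 to 394 (log2FC 0.34 ± 0.08, adjusted p = 0.0183).

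Gm6133, annotated as protein coding, matched Rpl17 over 608 bases with 93.1% identity. Its medians were 34.4 and 58.7 (log2FC 0.77 ± 0.19, adjusted p = 0.0329). Rpl17, a protein of the large ribosomal subunit, ran from 74.8 to 108 in controls and from 105 to 150 in exposed mice (log2FC 0.40 ± 0.08, adjusted p = 0.00391), and 11 exposed mice were above all controls. Both members of each of these pairs were thus higher at an adjusted p under 0.05. Gm6133 lost the call in 6 of the 27 fits with a mouse left out, with an adjusted p of 0.0657 without replicate 8 of the exposed group.

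For the other pairs the match did not pass the test. Crry-ps (96.6% identical to Cr1l, a complement regulator) had values from 0.935 to 3.01 in controls and from 1.79 to 5.21 in exposed mice (log2FC 0.73 ± 0.14, adjusted p = 0.00391), and Cr1l had a log2FC of 0.20 ± 0.06 (adjusted p = 0.102). Gm5470 (96.0% identical to Gpbp1l1) had medians of 4.02 and 7.16 (log2FC 0.73 ± 0.18, adjusted p = 0.0268) against 11.1 and 13.4 for Gpbp1l1 (adjusted p = 0.245), and without replicate 5 of the exposed group the adjusted p of Gm5470 was 0.0535. Rpl13a-ps1 (95.3% identical to Rpl13a) rose from a median of 3.48 to 8.05 (log2FC 1.02 ± 0.23, adjusted p = 0.0167), while Rpl13a had a log2FC of -0.09 ± 0.13 (adjusted p = 0.847). The way in which the authors' quantification split reads between such copies was not tested.

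Major urinary proteins (MUPs) are small carrier lipocalins that the male mouse liver secretes in large amounts and that pass into urine, where they release pheromones. Their genes lie side by side on chromosome 4 and are close copies of one another. The largest log2FC of all DEGs belonged to a pseudogene of this cluster, Mup-ps17 (61857321 to 61857876, minus strand). Its annotated transcript of 218 bases in 2 exons aligned without gaps over its whole length with 15 protein-coding Mup genes at 89.9 to 95.0% identity. It is shown with the same stretch of its closest match, Mup6, and of Mup14, the other DEG of the family, from GENCODE M21 on GRCm38. Capitals mark, in Mup-ps17, the 11 bases that differ from Mup6 and, in the other sequences, the bases that differ from Mup-ps17 (11 in Mup6, 17 in Mup14).
Mup-ps17: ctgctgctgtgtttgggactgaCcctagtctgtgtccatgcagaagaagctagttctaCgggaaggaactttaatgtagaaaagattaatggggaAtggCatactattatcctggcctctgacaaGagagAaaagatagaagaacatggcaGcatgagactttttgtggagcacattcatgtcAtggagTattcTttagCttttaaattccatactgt
Mup6: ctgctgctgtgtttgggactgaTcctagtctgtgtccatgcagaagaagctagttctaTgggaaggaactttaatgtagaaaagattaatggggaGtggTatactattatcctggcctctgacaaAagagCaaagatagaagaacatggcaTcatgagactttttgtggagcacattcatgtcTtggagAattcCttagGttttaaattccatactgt
Mup14: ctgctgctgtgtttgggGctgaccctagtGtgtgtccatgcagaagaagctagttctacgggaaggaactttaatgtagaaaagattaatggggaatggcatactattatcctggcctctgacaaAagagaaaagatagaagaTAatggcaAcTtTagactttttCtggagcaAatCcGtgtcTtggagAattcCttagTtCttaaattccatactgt
The Mup6 stretch ended 588 bases before the end of its transcript, whereas the libraries were read from 3′ ends.

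Mup-ps17 had values from 8.31 to 188 in controls (median 44.3) and from 69.8 to 1869 in exposed mice (median 615). In 12 of the 13 exposed mice it was above every control, and the lowest exposed mouse was inside the control range. The log2FC was 3.44 ± 0.79 (adjusted p = 0.0167), and it stayed between 3.25 and 3.69 when any mouse was left out. Mup14 ran from 192 to 2296 in controls (median 1124) and from 1478 to 6553 in exposed mice (median 2488), all 13 above the control median (log2FC 1.31 ± 0.32, adjusted p = 0.032). Without replicate 8 of the exposed group, the mouse at 6553, the adjusted p was 0.0691, and the call was lost in 4 of the 27 fits.

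The rest of the family varied widely between mice. Of 28 tested rows with Mup symbols 27 had a log2FC above 0, also after quantile normalization or rescaling to equal sums, and 24 did with array quality weights. Their median log2FC was 0.69, and 0.39 with a pseudocount of 5. Of the 27, 12 had an unadjusted p under 0.05 in limma, beside 1411 of all 11471 rows (12.3%) in either direction. Of all rows, 5829 had a log2FC above 0. Genes of the family are close copies of one another, so these rows are not separate observations. Of the 21 tested members of the Mup list 20 were above 0, with a median log2FC of 0.74 beside 0.0035 over all rows. Of the 21, 2 were DEGs, both higher, beside 0.201% of all rows. Mup7 had medians of 368 and 1210 (log2FC 1.45 ± 0.63, adjusted p = 0.305), Mup1 of 67.5 and 186 (1.40 ± 0.53, adjusted p = 0.219) and Mup11 of 1500.1 and 2982 (1.03 ± 0.40, adjusted p = 0.241). Mup20, which encodes the pheromone darcin and had the highest level, had a log2FC of 0.35 ± 0.18 (adjusted p = 0.407). Mup13 was the only one below 0, at -0.38 ± 1.34 (adjusted p = 0.948). The SE of the 28 rows ran from 0.18 to 1.34. The summed value of the list was 9332 to 20638 in controls (median 14697) and 11663 to 57291 in exposed mice (median 25034), so the groups overlapped.

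**Figure D3:**
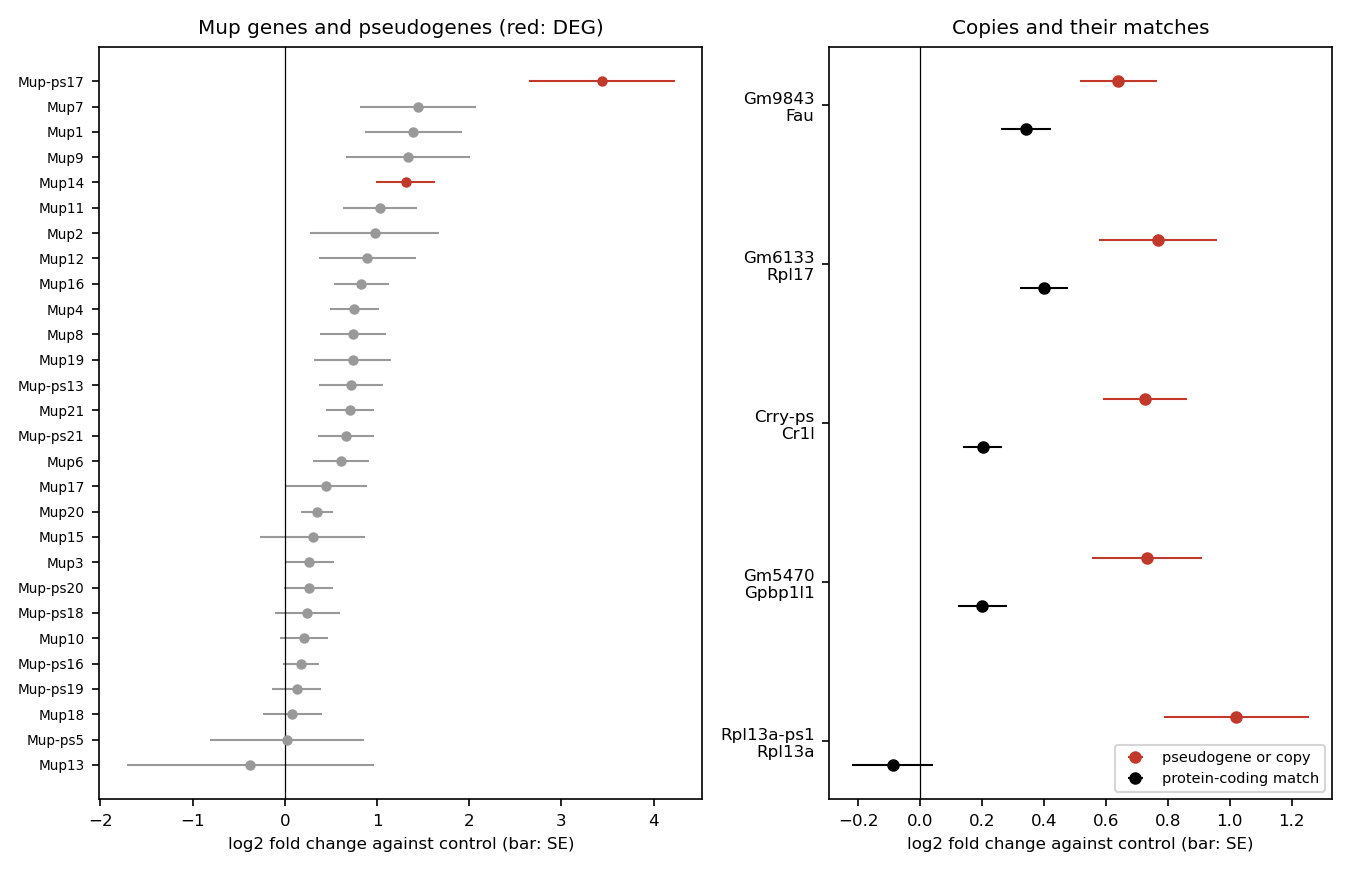
The left panel gives the log2 fold change at 1.5 mg/kg bw/d against control for the 28 tested Mup rows, with SE bars and the DEGs in red. The right panel sets 5 upregulated copies (red) beside their protein-coding matches (black). All Mup rows but Mup13 lie right of 0, most with bars far wider than those of Fau or Rpl17, and each copy lies right of its match.

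Mup genes depend on growth hormone through STAT5 in males, and genes of that axis were tested as a list. Its members need not move in the direction of Mup. Of 20 members 12 were higher and 8 lower (median log2FC 0.16) and none had an adjusted p under 0.05. Cyp2d9, a steroid hydroxylase of the male liver, had a log2FC of 0.45 ± 0.22 (adjusted p = 0.388), and Igf1, the growth factor made in response to growth hormone, of 0.14 ± 0.08 (adjusted p = 0.507).

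Both small noncoding DEGs were lower. Snord118 is U8, the box C/D small nucleolar RNA that is required for maturation of 5.8S and 28S ribosomal RNA. It is shown whole (chromosome 11, 69073427 to 69073561, plus strand, GENCODE M21 on GRCm38), because it carries the largest downward log2FC. No annotated gene overlaps it, but it lies just downstream of Tmem107 on the same strand, and reads that run past the end of Tmem107 could be counted in it. Capitals mark the first TGATGA (position 53) and the last CTGA (position 131), the letters of box C and box D on the strand shown.
Snord118: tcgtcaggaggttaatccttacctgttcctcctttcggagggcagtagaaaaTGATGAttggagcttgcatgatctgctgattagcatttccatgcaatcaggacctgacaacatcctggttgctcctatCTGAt
It was listed at 0 in 1 of 14 controls and in 11 of 13 exposed mice. The highest control was at 23.1 (median 8.21), while the 2 exposed mice above 0 were at 21.0 and 21.3, within the control range. The fitted log2FC of -2.43 ± 0.61 (adjusted p = 0.0356) depends on the 1 added before the logarithm, since so many values are at 0. The transcript is short (135 bases), and the number of reads behind its values is unknown. The call was lost in 12 of the 27 fits, with an adjusted p of 0.0657 without replicate 8 of the exposed group.

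Scarna2, a Cajal body RNA that guides modification of spliceosomal RNA, ran from 2.88 to 20.3 in controls (median 10.3) and from 1.03 to 8.12 in exposed mice (median 3.58), all of which were below the control median (log2FC -1.22 ± 0.33, adjusted p = 0.0462). The call was lost in 22 of the 27 fits (adjusted p = 0.09997 without replicate 5 of the exposed group). Of 52 tested genes of these classes in the list, 32 were higher and 20 lower, the median log2FC was 0.13, and Snord118 and Scarna2 were the only ones with an adjusted p under 0.05. Mature RNAs of these classes carry no poly(A) tail, whereas the libraries were primed on poly(A).

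Among the 20 rows with the smallest adjusted p, 12 changed by less than the fold threshold. Ppp3ca, the catalytic subunit of calcineurin, was higher (means 27.2 ± 2.14 and 34.2 ± 4.34, log2FC 0.32, adjusted p = 0.00175), as was Gnas, the stimulatory G-protein subunit (0.30, adjusted p = 0.0056), whereas Atp2b1, a calcium pump of the plasma membrane, was lower (log2FC -0.47, adjusted p = 0.0056). Ncl, which encodes nucleolin, had values from 201 to 293 in controls and from 131 to 220 in exposed mice (log2FC -0.44 ± 0.08, adjusted p = 0.00391). Ywhae, a 14-3-3 protein, and Etnk1, an ethanolamine kinase, were lower too (log2FC -0.36 and -0.37, adjusted p = 0.00391 and 0.0036).

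Ifnar2, a subunit of the type I interferon receptor, Uba1, the ubiquitin-activating enzyme, and Ybx1, an RNA-binding protein, were higher (log2FC 0.33, 0.39 and 0.24, adjusted p = 0.00391, 0.00437 and 0.00391). Keap1, the adaptor that targets NRF2 for degradation, ran from 35.3 to 45.2 in controls and from 27.8 to 41.1 in exposed mice (log2FC -0.27 ± 0.06, adjusted p = 0.00586). In the list of NRF2 targets, heme and bilirubin handling, 13 of 32 genes were higher and 19 lower (median log2FC -0.094), with Blvra, Flvcr2 and Keap1 past an adjusted p of 0.05. Blvrb, the second biliverdin reductase, had a log2FC of -0.05 ± 0.06 (adjusted p = 0.819).

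None of the genes in the list of PPARα targets passed the test at this dose. The list did not hold Decr2 or Aldh9a1, which are given below. Of 37 tested targets 17 were higher and 20 lower, the median log2FC was -0.03, and none had an adjusted p under 0.05 by limma. Fabp1, the fatty acid-binding protein of liver, ran from 833 to 2925 in controls and from 1078 to 1817 in exposed mice (log2FC -0.39 ± 0.20, adjusted p = 0.428), and all 13 exposed mice were below its control median of 1950. Acaa1b, a peroxisomal thiolase, had a log2FC of -0.33 ± 0.12 (adjusted p = 0.218), and Acadm, the medium-chain acyl-CoA dehydrogenase, of -0.08 ± 0.13 (adjusted p = 0.879). The omega-hydroxylase genes Cyp4a10 and Cyp4a14 are the usual markers of PPARα activity and are given for that reason, outside the rule by which genes were named. Cyp4a10 ran from 37.5 to 179 in controls (median 126) and from 22.9 to 278 in exposed mice (median 149), and Cyp4a14 from 105 to 583 (median 345) and from 17.7 to 938 (median 315). Their log2FC was 0.15 ± 0.25 and -0.32 ± 0.31 (adjusted p = 0.878 and 0.73). The exposed mice spread more widely than the controls on both genes. Ppara itself had means of 130.1 ± 29.1 and 147 ± 23.7 (adjusted p = 0.516).

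Oxidation of fatty acids showed isolated changes. No gene among 22 of mitochondrial beta-oxidation had an adjusted p under 0.05 (median log2FC 0.028). Among 17 peroxisomal genes Decr2, a dienoyl-CoA reductase, was higher (means 88.4 ± 11.8 and 113 ± 17.1, adjusted p = 0.0357), and among 11 genes of carnitine synthesis and transport Aldh9a1, an enzyme of carnitine synthesis, and Shmt2 were higher (log2FC 0.27 and 0.29, adjusted p = 0.0179 and 0.043). Of 7 ketone body genes Bdh1, which interconverts the main ketone bodies, was lower (means 201 ± 17.5 and 159 ± 26.9, log2FC -0.35 ± 0.09, adjusted p = 0.043). None of these was a DEG, and Decr2, Shmt2 and Bdh1 missed an adjusted p of 0.05 in 9, 18 and 18 fits when each of the 27 mice was left out in turn. The highest values were 0.0633 for Decr2 without exposed replicate 1, 0.0825 for Shmt2 without control replicate 8 and 0.0889 for Bdh1 without exposed replicate 5.

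No gene passed an adjusted p of 0.05 among 20 of de novo lipogenesis, 25 of triglyceride synthesis and lipid droplets, 25 of cholesterol synthesis, 20 of bile acid synthesis and transport, 23 of gluconeogenesis and glycolysis, 17 of insulin signalling, 19 of the clock, 31 of the extracellular matrix and 27 nuclear receptors and cofactors. The median log2FC of these lists lay between -0.015 and 0.14. Scd1, the stearoyl-CoA desaturase, ran from 765 to 2607 in controls and from 563 to 2619 in exposed mice (log2FC -0.39 ± 0.23, adjusted p = 0.49). Of 25 cholesterol synthesis genes 18 were higher, with the largest mean for Ebp (log2FC 0.21 ± 0.08, adjusted p = 0.206). Dbp, a clock output, varied from 13.2 to 124 in controls and from 14.7 to 130.4 in exposed mice (adjusted p = 0.503).

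Among genes of glucuronidation, sulfation and ester hydrolysis 21 of 32 were higher (median log2FC 0.071) and 2 passed an adjusted p of 0.05. Ugt2b36 had means of 188 ± 20.7 and 240.0 ± 32.2 (log2FC 0.35 ± 0.08, adjusted p = 0.0129). Ugt1a1, which conjugates bilirubin, was a DEG and ran from 0.764 to 5.93 in controls and from 3.97 to 8.38 in exposed mice (log2FC 0.68 ± 0.18, adjusted p = 0.0462). Its 3′ end is shared with the other transcripts of the Ugt1a cluster, and it lost the call in 19 of the 27 fits (adjusted p = 0.0922 without control replicate 8). Among 32 cytochrome P450 genes of families 1 to 3, 24 were higher (median log2FC 0.11), and the pseudogene Cyp2c72-ps alone passed, with 1 exposed mouse at 29.4 (log2FC 1.25 ± 0.34, adjusted p = 0.0462). Without that mouse, exposed replicate 7, its log2FC was 1.06 and the adjusted p 0.103, and the call was lost in 21 of the 27 fits.

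**Figure D4:**
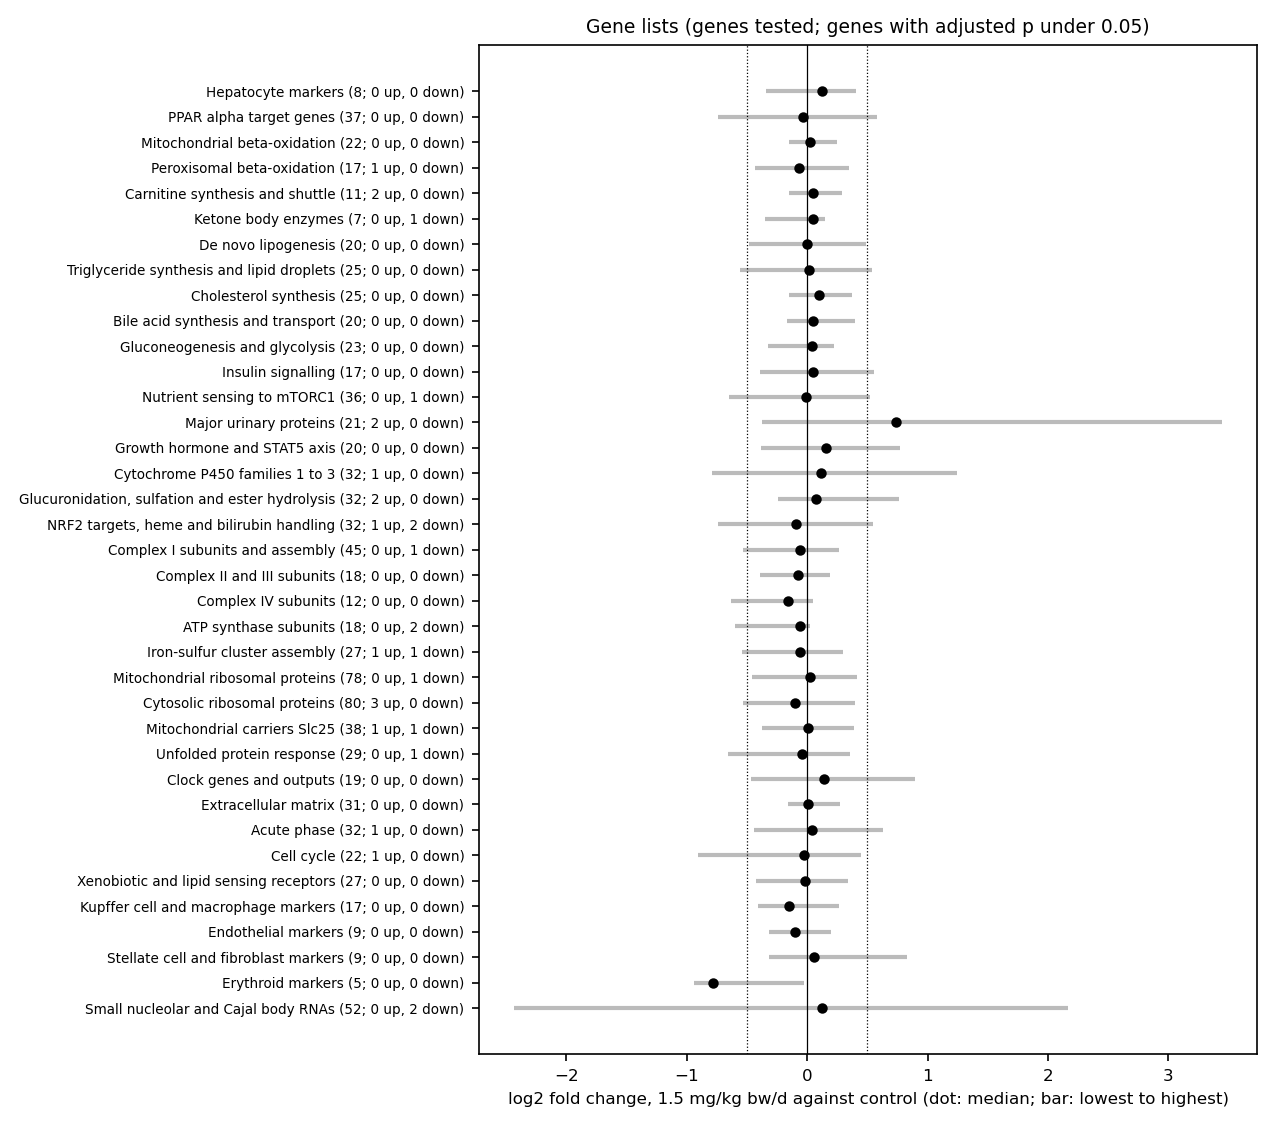
For each gene list with at least 5 tested genes, the dot is the median log2 fold change at 1.5 mg/kg bw/d against control and the bar runs from the lowest to the highest member. The labels give the genes tested and those with an adjusted p under 0.05. Medians lie near 0 except for the major urinary proteins (0.74) and the erythroid markers (-0.78).

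For nuclear-encoded genes of the respiratory chain, the counts below 0 were 27 of 45 for complex I and its assembly, 12 of 18 for complexes II and III, 11 of 12 for complex IV and 12 of 18 for ATP synthase, with a median log2FC of -0.059, -0.075, -0.16 and -0.062. Of all 11471 rows 5642 were below 0. Without control replicate 1, 24 of 45 were below 0 for complex I (median -0.033) and 11 of 18 for ATP synthase (-0.027), without control replicate 8 the median of complex I was -0.094, and after quantile normalization that of ATP synthase was -0.097. Past an adjusted p of 0.05 were Ndufb2 of complex I and the ATP synthase subunits Atp5mc3 (means 3332 ± 619 and 2499 ± 351, log2FC -0.41, adjusted p = 0.0361) and Atp5mg (258 ± 57.1 and 185 ± 25.4, log2FC -0.46, adjusted p = 0.0375). Cox8a, a subunit of complex IV, had a log2FC of -0.53 ± 0.18 (adjusted p = 0.15), with controls from 1129 to 2856 and exposed mice from 849.9 to 1503. Among 38 mitochondrial carriers Slc25a22, a glutamate carrier, was lower (log2FC -0.38, adjusted p = 0.0241) and Slc25a28, an iron carrier, was higher (0.30, adjusted p = 0.0462). Left-out fits ended an adjusted p under 0.05 in 10 of 27 for Atp5mc3 (0.075 without exposed replicate 8), 12 for Atp5mg (0.0773 without control replicate 1) and 22 for Slc25a28 (0.101 without control replicate 1), and in none for Slc25a22.

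Of 80 cytosolic ribosomal protein genes 31 were higher and 49 lower (median log2FC -0.098, but -0.057 without control replicate 1 and -0.060 with array quality weights), and the 3 with an adjusted p under 0.05 were all higher, namely Rpl17, Fau and Rps24 (log2FC 0.32, adjusted p = 0.043). Of 78 mitochondrial ribosomal protein genes 45 were higher (median 0.028), and Mrpl52 was lower (log2FC -0.32, adjusted p = 0.0438). Ceruloplasmin (Cp), the copper-carrying ferroxidase of plasma, was the only 1 of 32 acute phase genes past an adjusted p of 0.05 (log2FC 0.26, adjusted p = 0.043), and Cenpx, a centromere protein, the only 1 of 22 cell cycle genes (log2FC 0.44, adjusted p = 0.0375). Of these, Rps24, Mrpl52, Cp and Cenpx missed an adjusted p of 0.05 in 19, 17, 19 and 10 of the 27 fits with a mouse left out, with highest values of 0.0896 (exposed replicate 3), 0.0909 (control replicate 1), 0.0798 (exposed replicate 9) and 0.0695 (control replicate 8), while Rpl17 and Fau did not miss it in any.

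Markers of other cell types did not pass the test in either direction. Of 17 Kupffer cell and macrophage markers 15 were lower (median log2FC -0.15), with a summed value of 218 to 825 in controls (median 282) and 183 to 475 in exposed mice (median 292), so the median sum was not lower. Of 9 endothelial markers 7 were lower (median -0.10), with sums of 137 to 176 (median 161) and 142 to 175 (median 160.1). Of 9 stellate cell and fibroblast markers 6 were higher (median 0.054), with sums of 237 to 456 (median 313) and 278 to 427 (median 349). Few markers of the other cell types could be tested. Of these, 2 of 3 were higher for cholangiocytes (median 0.045), 1 of 3 for T, B and NK cells (-0.032), 0 of 2 for neutrophils (-0.49), 1 of 3 for adipocytes (-0.34) and 1 of 1 for pancreatic acinar cells (0.22). All 5 erythroid markers were lower (median -0.78), with sums of 385 to 3014 in controls (median 813) and 282 to 1208 in exposed mice (median 518), and the highest of them, Hbb-bs, had an adjusted p of 0.399. Vwf, Itgam, Cd3e, Adipoq and Plin1 were at 0 in the median mouse. The part of blood or of non-parenchymal cells in the results above was not tested.

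The DEGs were then set beside the other doses. All doses were compared with the same control mice, so agreement between doses against control is partly built in, and the doses were therefore also contrasted directly. The genes were chosen on the values of the low-dose mice, which enter these contrasts too. At an adjusted p under 0.05, 27 of the 42 DEGs differed between the low dose and 15 mg/kg bw/d, beside 21.4% of all rows, and 18 of 42 between the low dose and 150 mg/kg bw/d, beside 4.56% of all rows.

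Patterns across doses differed between genes. Dynll2 had a log2FC against control of -0.53, -0.50 and 0.05 at the low, middle and high dose. Contrasted directly, its log2FC at the low dose was -0.03 relative to 15 mg/kg bw/d (adjusted p = 0.846) and -0.58 relative to 150 mg/kg bw/d (adjusted p = 2.7e-06). Iba57 likewise had -0.54, -0.76 and 0.19 against control, and differed from 150 mg/kg bw/d by -0.74 (adjusted p = 3.81e-05). Rraga had a log2FC of -0.65, -0.71 and -0.46 against control, and neither direct contrast passed the test (adjusted p = 0.779 and 0.391).

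For Zrsr2, Mettl8 and Mup-ps17 the contrast with 15 mg/kg bw/d passed the test and that with 150 mg/kg bw/d did not. Zrsr2 had -0.57, 0.07 and -0.41 against control and differed from 15 mg/kg bw/d by -0.64 (adjusted p = 9.72e-05), and its log2FC relative to 150 mg/kg bw/d was -0.16 (adjusted p = 0.507). Mettl8 had 0.97, 0.10 and 0.73 and differed from 15 mg/kg bw/d by 0.87 (adjusted p = 0.000788), and its log2FC relative to 150 mg/kg bw/d was 0.24 (adjusted p = 0.543). Mup-ps17 had 3.44, -1.08 and 1.24 and differed from 15 mg/kg bw/d by 4.52 (adjusted p = 5.57e-05), while its contrast with 150 mg/kg bw/d, a log2FC of 2.20, did not pass the test (adjusted p = 0.101). Rapgef1, Gm9843 and H2ac18 differed from both higher doses: relative to the middle and the high dose it was 0.67 and 0.40 for Rapgef1 (adjusted p = 3.93e-05 and 0.0304), 0.59 and 0.44 for Gm9843 (adjusted p = 0.000555 and 0.0272) and -0.82 and -0.56 for H2ac18 (adjusted p = 0.000389 and 0.0401).

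**Figure D5:**
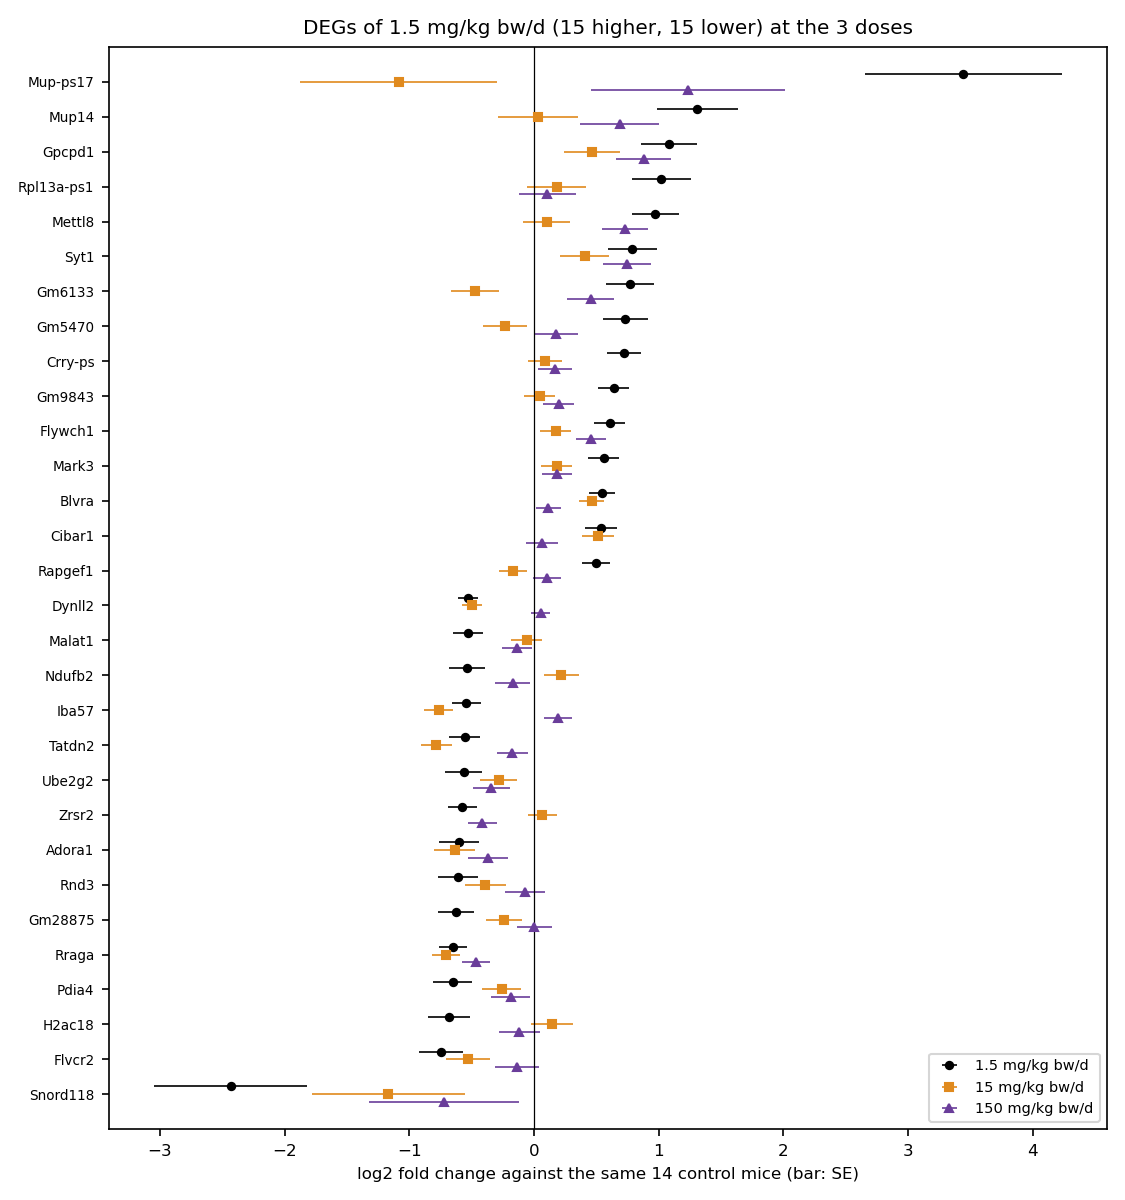
The 15 upregulated and 15 downregulated DEGs with the smallest adjusted p at 1.5 mg/kg bw/d are ordered by their log2 fold change (black circles) and shown with the log2 fold change at 15 (orange squares) and 150 mg/kg bw/d (purple triangles), each against the same 14 control mice, with SE bars. Rraga lies below 0 at all doses (-0.65, -0.71 and -0.46), while Mup-ps17 is at 3.44, -1.08 and 1.24.

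As a whole, the groups overlapped. In a principal component analysis of the 500 rows with the highest variance over the 27 mice, the first component (18.3% of variance) had a mean score of 2.48 ± 10.4 in controls and -2.67 ± 13.8 in exposed mice (2-sided permutation test with 100000 resamples, p = 0.281), and the second (7.23%) of -3.26 ± 6.73 and 3.51 ± 7.27 (permutation p = 0.0184, not adjusted for the 2 components). Control replicate 8 had the highest score on the first component (30.4) and the lowest array quality weight of the 27 mice (0.483). Exposed replicates 4, 9, 10 and 13 scored from 10.4 to 19.1 on it, and the other exposed mice from -21.3 to 0.62. The median SD within groups was 0.293 on the log2 scale in each, and 50.6% of rows had the larger SD in exposed mice. The DEGs covered low and high levels, with a median value of 9.96 for upregulated and 19.9 for downregulated DEGs, against 7.37 for all rows.

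Of the 42 DEGs 16 kept the call whichever of the 27 mice was left out: Dynll2, Rraga, Zrsr2, Iba57, Tatdn2, Gm28875 and Flvcr2 among the lower, and Gm9843, Blvra, Crry-ps, Mettl8, Flywch1, Gpcpd1, Mark3, Mup-ps17 and Rpl13a-ps1 among the higher. Of the others, 17 lost it in more than 9 fits. The number of DEGs ran from 22, without replicate 8 of the exposed group, to 58, without replicate 4 of that group (24 without control replicate 1 or exposed replicate 5, and 27 without replicate 12 of either group).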

How the data were processed

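Total RNA of the medial liver lobe of 54 mice was made into 3′ mRNA libraries. Per the labels and the study's methods, the authors processed reads with nf-core/rnaseq (STAR, RSEM, Salmon, GRCm38). The deposited values are a signal that the authors made by rounding TPM to whole numbers and dividing by a size factor per sample. All values were whole multiples of 1 step per sample (0.764 to 1.05, tolerance 0.001), and the whole numbers summed to between 948342 and 977508. They are not reads, so the depth is unknown and no counting interval is given.

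Samples were grouped by their labels, and mice of the other doses entered the fit for the shared spread. Rows whose mean over the 27 mice reached 1 were tested with limma 3.58.1 (R 4.3.3, trend) on log2(value + 1). P-values were adjusted by Benjamini-Hochberg over all tested rows. On simulated data with independent normal noise the test called 186 of 200 rows shifted by 1 on the log2 scale (93%) and 9 unchanged rows, of 11245 tested. Only 9 of the 42 DEGs went beyond a log2FC of 1, and recovery of smaller shifts was not tested.

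Named were up to 15 DEGs in each direction by smallest adjusted p, the 20 smallest adjusted p, and, in each gene list, up to 5 members with an adjusted p under 0.05 or else up to 3 with the largest mean. Members and lists were chosen with earlier results of these data known. Positions came from GENCODE M21 for 10990 rows by symbol and 66 by another symbol, and from RefSeq GRCm38.p6 for 203, while 38 were ambiguous and 174 unmatched. Copies were matched with blastn 2.17.0. Alternatives were the pseudocount, filter, scaling, weights, samples in the fit, replicate number and each mouse left out. Other tissues and measurements of the study were not analysed here. A few genes that this rule names are not reported here.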

Additional observations from a re-analysis of the deposited data

How the results depend on the processing

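Beside 42 DEGs, a pseudocount of 0.1, a minimum mean of 5, quantile normalization, rescaling to equal sums and robust variance estimation gave 41, 43, 40, 31 and 42. The number was 23 with a pseudocount of 5 (20 of them shared), 23 with no filter on low values, where more rows were tested (22 shared), 79 with only control and 1.5 mg/kg bw/d mice in the fit (41 shared) and 70 with array quality weights (39 shared). It was 137 without a fold threshold and 9 with a log2FC beyond 1. With the replicate number as a block, 27 were called (25 shared). The labels do not say what mice of the same number shared. Over 13 pairs their deviations had a mean correlation of 0.021 (-0.115 to 0.242), and no exposed mouse correlated best with the control of its own number. Whether such mice shared a processing step was not tested. Leaving out 1 mouse gave 22 to 58 DEGs. Dynll2, Flywch1, Gm9843, Gpcpd1, Mettl8, Mup-ps17, Rpl13a-ps1, Rraga and Zrsr2 (9 genes) kept the call under every one of these settings other than the log2FC threshold of 1. Over 113 named genes, 4173 single values were recomputed. Of these, 3543 kept their side of the threshold and direction, 625 lost the call, 2 (Cox8a) gained it and 3 turned direction. The last were all Mup13, whose log2FC ran from -0.88 to 0.13 with 1 mouse left out, being 0.009 without exposed replicate 4 and 0.13 without replicate 9 or 10. Apart from the effects of fewer samples or rows, the cause of these shifts was not tested. The unknown depth limits genes with values near 1, where 1 step is a large part of the value. It also limits short transcripts, whose values can jump far above 0 in single mice. Snord2, which was not tested, was at 0 in 12 of 13 exposed mice and had a highest value of 25.3.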

Other observations

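Of the 15 mitochondrially encoded rows 4 were higher and 11 lower in the exposed mice (median log2FC -0.18). ND4, a subunit of complex I that was singled out after its values were seen, was the one with an adjusted p under 0.05 in limma. Its mean was 18989 ± 2661 in controls and 24585 in exposed mice, 10 of which were above every control (log2FC 0.37 ± 0.09, adjusted p = 0.0329). The adjusted p was lost in 6 of the 27 fits with a mouse left out, with 0.0691 without exposed replicate 8. Fcor, a corepressor of Foxo1, was also singled out after its values were seen. It ran from 0 to 4.96 in controls and from 0 to 2.79 in exposed mice, 6 of which were listed at 0 (log2FC -1.17 ± 0.32, adjusted p = 0.0468), and it lost the call in 22 of the 27 fits.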
